A study of Rattus norvegicus with 6 samples.

Results

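The imprinted growth genes are a set of 9 genes, Dlk1, H19, Meg3, Peg3, Mest, Plagl1, Grb10, Ndn and Cdkn1c, that are expressed in mouse and human mainly from the copy inherited from 1 parent and that act on growth. They were followed through every probe set of a rat expression array that the platform annotation gives to 1 of their symbols. This rule found 11 probe sets for 8 of the 9 genes, of 31099 probe sets and 14217 named genes in all; no probe set carried the symbol Peg3 alone. The comparison set TDECC, 3 arrays of the clonal cholangiocarcinoma (bile duct cancer) strain BDEsp-TDECC, against TDESM, 3 arrays of BDEsp-TDESM, a clonal fibroblastic strain from the tumour stroma labelled for high Acta2. Both strains came from tumours in bile ducts of young adult male Fischer 344 rats that had received spontaneously transformed cholangiocytes (BDEsp cells), the lining cells of bile ducts. The labels give all 6 arrays the same text on a collagen gel co-culture and on the TGF-beta inhibitors SB 431542 and LY2157299, so no treatment was compared. Each group is 1 clone. No label states that replicates are separate cultures, and p-values here therefore cover array-to-array spread that may be technical only.

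In genomic imprinting, methylation laid down in egg or sperm silences 1 parental copy of a gene through development, usually over a cluster of neighbouring genes ruled by a shared control region. Genes expressed from the paternal copy, such as Dlk1, Peg3, Mest, Plagl1 and Ndn, and genes expressed from the maternal copy, such as H19, Meg3 and Cdkn1c, are abundant in the embryo and placenta and mostly decline after birth. Grb10 is expressed from the maternal copy in most tissues and from the paternal copy in neurons. In liver, Dlk1 and H19 are known as fetal genes that can return in tumours. The array reads the RNA of both copies together, so nothing here bears on which copy was read.

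The RefSeq promoter table, build GRCr8, held 7 of the 9 genes, with a window from 250 bases before to 50 bases after the start of each. The windows shown belong to the 3 genes that were lower in TDECC and to Dlk1, which was low on all arrays though its window held the most CG dinucleotides of the 7, the pair of bases that is methylated at imprinted genes. Capitals mark TGCCGC or its reverse complement GCGGCA, the letters that the imprint-keeping protein Zfp57 is known to bind in mouse when methylated. The Plagl1 window is chr1:9297214-9297513, plus strand, the Mest window chr4:60321564-60321863, plus strand, the Grb10 window chr14:90816338-90816637, minus strand, and the Dlk1 window chr6:134192347-134192646, plus strand.
Plagl1: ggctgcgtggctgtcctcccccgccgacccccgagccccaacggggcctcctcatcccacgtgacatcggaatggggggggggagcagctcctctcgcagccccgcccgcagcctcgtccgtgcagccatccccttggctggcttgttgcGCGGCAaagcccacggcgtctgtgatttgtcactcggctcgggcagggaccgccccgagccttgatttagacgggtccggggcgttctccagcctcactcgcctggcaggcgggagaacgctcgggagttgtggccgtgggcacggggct
Mest: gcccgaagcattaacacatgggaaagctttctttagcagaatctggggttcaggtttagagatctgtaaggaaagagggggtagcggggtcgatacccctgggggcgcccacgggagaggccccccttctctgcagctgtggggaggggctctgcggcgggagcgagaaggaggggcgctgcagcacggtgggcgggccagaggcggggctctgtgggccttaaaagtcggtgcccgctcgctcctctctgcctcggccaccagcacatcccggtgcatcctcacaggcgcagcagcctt
Grb10: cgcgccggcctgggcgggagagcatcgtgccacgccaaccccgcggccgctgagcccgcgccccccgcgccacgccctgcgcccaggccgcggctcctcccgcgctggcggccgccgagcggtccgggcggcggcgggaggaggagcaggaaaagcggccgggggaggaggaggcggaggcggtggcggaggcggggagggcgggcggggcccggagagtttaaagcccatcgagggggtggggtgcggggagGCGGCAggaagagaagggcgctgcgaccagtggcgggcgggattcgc
Dlk1: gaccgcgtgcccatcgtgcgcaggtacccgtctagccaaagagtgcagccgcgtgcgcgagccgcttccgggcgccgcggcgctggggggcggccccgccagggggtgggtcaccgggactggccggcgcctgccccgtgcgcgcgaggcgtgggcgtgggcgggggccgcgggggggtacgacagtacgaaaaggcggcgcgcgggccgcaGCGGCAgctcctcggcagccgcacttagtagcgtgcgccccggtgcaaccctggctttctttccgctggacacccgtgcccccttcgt
The windows held 29 CG dinucleotides at Plagl1, 18 at Mest, 44 at Grb10 and 45 at Dlk1, and those of Peg3, Ndn and Meg3 held 16, 14 and 13. The median over 33469 rat promoter windows was 7, with an upper quartile of 19, so each of the 7 windows stood above the median. TGCCGC, searched on both strands, matched once each at Plagl1, Grb10, Dlk1 and Meg3, so in 4 of the 7, against 11.7% of all windows. It overlaps none of the other letters searched. TGCCGC itself holds a CG, and each of the 7 windows stood above the median in CG, so 11.7% is not the share of windows alike in CG. GCCATNTT, a core of the YY1 motif searched on both strands, matched in none of the 7 and in 7.0% of all windows. TATAAA, searched on the forward strand, matched at Meg3 and in 8.8% of all windows. A match describes the letters of a window and is no evidence of binding. The windows are set by gene starts and need not hold the control region of a cluster, so a match does not mark an imprint.

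The 6 arrays had medians of 5.80 to 5.86 on the log2 scale. Arrays of the same strain had a correlation across genes of 0.968 to 0.975 within TDECC and of 0.995 to 0.998 within TDESM, and arrays of different strains at 0.787 to 0.823. All 13 measured markers of bile duct epithelium and carcinoma were higher in TDECC, with a median level of 12.77 in TDECC and 3.73 in TDESM. Of 19 fibroblast markers 17 were lower in TDECC, with medians of 4.43 in TDECC and 11.87 in TDESM; the exceptions were Fap, at 4.18 in TDECC and 4.28 in TDESM, and Dcn, at 3.87 in TDECC and 3.67 in TDESM. As a guide to the array background, 88 genes of 5 other lineages (leukocyte, endothelial, hepatocyte, muscle and neural) had a median of 4.43 in TDECC and 4.40 in TDESM. Their 90th percentile was 6.10 in TDECC and 6.67 in TDESM, and the array file holds no call of presence or absence.

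Of the 8 measured genes, 4 passed a limma adjusted p of 0.05. Cdkn1c was higher in TDECC, Plagl1, Mest and Grb10 were lower in TDECC, and Dlk1, H19, Meg3 and Ndn did not pass. Across all 14217 genes 42.7% passed, 20.6% higher and 22.1% lower in TDECC, so 4 of 8 is close to the background share. The median difference was -0.28 over the 8 genes and 0.00 over all genes. The 4 that did not pass all had means under 6 in both strains, a class of 4411 genes of which 12.6% passed, and Grb10 lay in that class too. Of the 9806 genes with a mean of 6 or above in at least 1 strain, 56.2% passed.

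**Figure D1:**
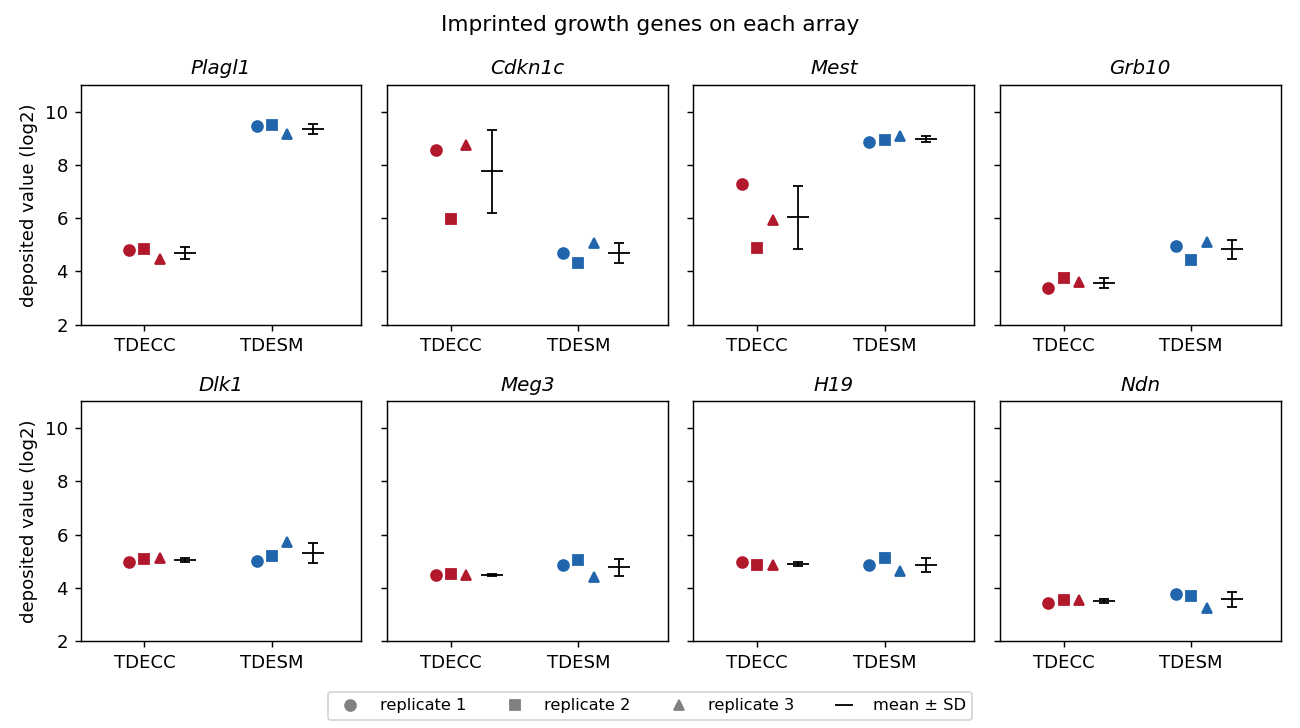
Deposited log2 value (vertical axis) of each imprinted growth gene on each array, with TDECC at the left in red and TDESM at the right in blue; symbols give the replicate number and the bar the mean ± SD of 3 arrays. Plagl1, Mest and Grb10 lie lower in TDECC and Cdkn1c higher without overlap, the TDECC symbols of Cdkn1c and Mest are spread over 2.77 and 2.38 log2 units, and the lower 4 panels stay under 6.

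Plagl1 encodes Zac1, a zinc finger transcription factor that arrests the cell cycle and, in mouse, regulates other imprinted genes. It read 4.79, 4.85 and 4.45 on the TDECC arrays, against 9.46, 9.48 and 9.14 on the TDESM arrays. The TDECC values lie near the background guide, the TDESM values are well above it, and the strains are far apart. In these bulk samples fewer cells with the RNA and less RNA per cell cannot be told apart. The log2 difference, TDECC minus TDESM, was -4.66 (SE 0.16, 95% confidence interval -5.05 to -4.27, limma adjusted p = 1.20e-06). Where 1 strain lies near the array background, as TDECC does for Plagl1, the size of a difference is limited by that floor and is not an exact fold. Of all genes 2.38% passed with a difference of -4 or below. For Plagl1, as for Mest, Grb10 and Cdkn1c, p was 0.1 by an exact permutation test (two-sided), and 3 arrays against 3 can go no lower. Of all genes, 53.6% had arrays that did not overlap between the strains.

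Mest, also known as Peg1, encodes an enzyme of the alpha/beta hydrolase fold that is a marker of mesoderm in the mouse embryo. It read 7.27, 4.89 and 5.93 on the TDECC arrays, against 8.86, 8.95 and 9.07 on the TDESM arrays. Every TDECC array was lower, but the TDECC values were spread widely while the TDESM values were tight. The means were 6.03 ± 1.19 in TDECC and 8.96 ± 0.11 in TDESM (SD, n = 3 each), so TDECC minus TDESM was -2.93 on the log2 scale, with an SE of 0.54 (limma adjusted p = 0.00406). Without TDECC replicate 2 the difference was -2.36, and without TDECC replicate 1 it was -3.55, both past the threshold.

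Grb10 encodes an adaptor that binds the insulin and IGF1 receptors and restrains their signalling. By its brightest probe set it read 3.36, 3.75 and 3.60 in TDECC, against 4.94, 4.44 and 5.09 in TDESM. The strains did not overlap, though all 6 values lie near the background guide. The log2 difference was -1.25 (SE 0.20, limma adjusted p = 0.00223). The other 2 probe sets of Grb10 did not pass, with TDECC values of 3.30 to 3.44 and TDESM values of 3.30 to 3.62, and with the mean of all 3 the difference was -0.46 (limma adjusted p = 0.0132). Centred on the poly-A control transcripts added to the RNA, the difference was -0.03 and the call was lost.

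Cdkn1c encodes p57Kip2, an inhibitor of cyclin-dependent kinases that holds cells out of the cycle and whose loss causes overgrowth in mouse and human. It read 8.56, 5.97 and 8.74 in TDECC, against 4.69, 4.33 and 5.08 in TDESM. TDECC replicate 2 lay well below the other TDECC arrays but still above every TDESM array. The means were 7.76 ± 1.55 in TDECC and 4.70 ± 0.38 in TDESM (SD, n = 3 each), so TDECC minus TDESM was 3.06 on the log2 scale, with an SE of 0.71 (95% confidence interval 1.38 to 4.74, limma adjusted p = 0.0117). The TDESM values lie near the background guide, so the size is limited by the floor here too. Of all genes 5.37% passed with a difference of 2 or above. Without TDECC replicate 2 the difference was 3.95 (limma adjusted p = 5.69e-05). Without TDESM replicate 2 it was 2.87 and missed the threshold (limma adjusted p = 0.0503).

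The 4 genes that did not pass had these values. Dlk1, a membrane protein of the Delta family that restrains fat cell differentiation, read 4.96, 5.07 and 5.11 in TDECC, against 5.01, 5.20 and 5.72 in TDESM. Its log2 difference was -0.26, with a 95% confidence interval of -0.73 to 0.20 (limma adjusted p = 0.332). The groups overlapped, and the highest value was that of TDESM replicate 3. H19, a long noncoding RNA that is abundant in fetal liver and muscle, read 4.97, 4.85 and 4.85 in TDECC, against 4.85, 5.14 and 4.62 in TDESM (log2 difference 0.02, interval -0.35 to 0.39). Meg3, the noncoding RNA expressed from the maternal copy beside Dlk1, read 4.47, 4.52 and 4.47 in TDECC, against 4.85, 5.06 and 4.43 in TDESM by its brighter probe set. Neither H19 nor Meg3 separated the strains on all arrays.

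The Meg3 difference was -0.29 (interval -0.71 to 0.12, limma adjusted p = 0.232), and it was -0.47 and past the threshold without TDESM replicate 3. The second Meg3 probe set stood between 3.50 and 3.77 on all arrays and differed by 0.09. Ndn, necdin, a growth-suppressing protein of the MAGE family found mainly in neurons, read 3.43, 3.55 and 3.53 in TDECC, against 3.77, 3.70 and 3.25 in TDESM (log2 difference -0.07, interval -0.46 to 0.32). TDESM replicate 3 was the lowest array for H19, Meg3 and Ndn and the highest for Dlk1. For these 4 genes the TDESM arrays were spread more than for 91.9% to 98.5% of the genes whose means were under 6 in both strains.

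Ordered by their TDECC means, the genes ran from Cdkn1c (7.76) and Mest (6.03) through Dlk1 (5.05), H19 (4.89), Plagl1 (4.70) and Meg3 (4.49) to Grb10 (3.57) and Ndn (3.50). In TDESM the order was Plagl1 (9.36), Mest (8.96), Dlk1 (5.31), H19 (4.87), Grb10 (4.82), Meg3 (4.78), Cdkn1c (4.70) and Ndn (3.57). Probe sets bind with different strength, so these orders are of array values and not of transcript numbers. Of the 8, Plagl1 and Mest in TDESM and Cdkn1c in TDECC were the values that lay above the 90th percentile of the background genes of their strain.

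Where imprinted genes lie in clusters, the neighbours were read as well: the 3 nearest measured genes on each side in the RefSeq gene order of GRCr8. Of 48 distinct neighbours that are not members, 8 were higher and 11 lower in TDECC, or 39.6% in all, against 42.7% of all genes. The count was highest around Cdkn1c, where 5 of 6 passed, 4 of them higher in TDECC. Around Dlk1 and around Meg3, 0 of 6 passed by limma, and 1 of 6 had an unadjusted p under 0.05 at each. These genes are neighbours of each other and share Begain, LOC102555774, Dio3 and Ppp2r5c, so the counts are of largely the same genes. The gene under 0.05 was Ppp2r5c both times.

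Kcnq1, a potassium channel whose intron holds the control region of the Cdkn1c cluster in mouse, read 8.83, 9.74 and 9.68 in TDECC, against 4.36, 4.87 and 4.35 in TDESM (log2 difference 4.89, SE 0.28, limma adjusted p = 1.22e-05). Phlda2, a pleckstrin homology protein that limits placental growth in mouse, read 9.94, 9.89 and 9.06 in TDECC, against 5.34, 5.32 and 5.23 in TDESM (log2 difference 4.33). Slc22a18, a transporter gene of the cluster, read 7.77, 9.68 and 8.06 in TDECC, against 5.41, 5.65 and 5.76 in TDESM (log2 difference 2.90). For each of these genes all TDECC arrays were above all TDESM arrays.

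The TDECC arrays did not follow one order within the cluster: replicate 2 was the lowest for Cdkn1c and the highest for Kcnq1 and Slc22a18. Nap1l4, a nucleosome assembly gene at the edge of the cluster, was higher in TDECC by 0.61 (limma adjusted p = 0.0126). Tssc4, at 9.05 in TDECC and 9.27 in TDESM, did not pass. Cd81, a tetraspanin on the far side of Kcnq1, read 4.02, 3.05 and 4.80 in TDECC, against 11.89, 11.99 and 11.95 in TDESM, a log2 difference of -7.99 (limma adjusted p = 6.44e-06). The higher values in TDECC therefore ran from Kcnq1 to Nap1l4 and did not reach Tssc4 and Cd81. Igf2, the growth factor gene beside H19, read 5.57, 5.40 and 5.67 in TDECC, against 5.47, 5.58 and 5.40 in TDESM, by a probe set whose name marks probes shared by several transcripts, and did not pass (limma adjusted p = 0.735).

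**Figure D2:**
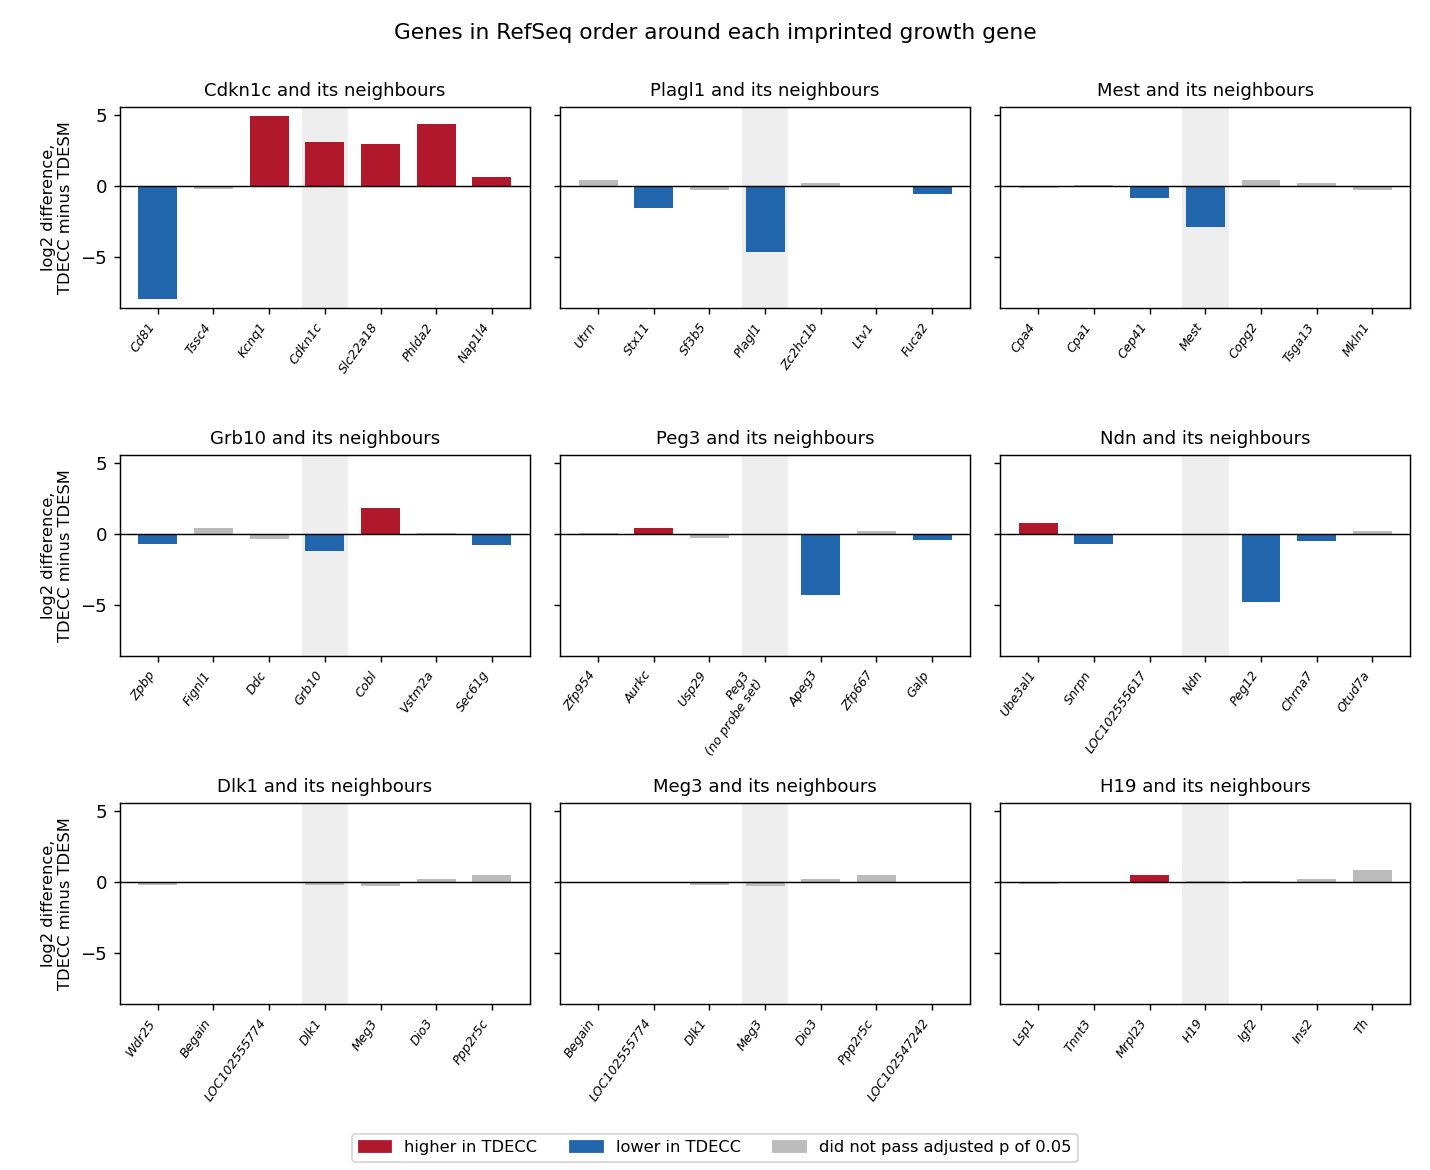
Log2 difference, TDECC minus TDESM (vertical axis), of each imprinted growth gene (grey band) and the 3 nearest measured genes on each side in RefSeq order; red bars passed a limma adjusted p of 0.05 as higher in TDECC, blue bars as lower, and grey bars did not pass. Red bars run from Kcnq1 to Nap1l4 around Cdkn1c, Apeg3 at Peg3 and Peg12 beside Ndn stand out as blue bars of -4.31 and -4.83, and the Dlk1 and Meg3 panels hold no coloured bar.

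Peg3 itself, a zinc finger protein that acts in cell death, has no probe set of its own name here. Apeg3, a noncoding RNA known as an antisense transcript of Peg3, has 4, and in RefSeq its interval lies wholly inside that of Peg3. No source used here gives the strand that these probe sets read, so Peg3 and Apeg3 RNA cannot be told apart by them. The probe set with the largest difference read 3.47, 3.33 and 3.26 in TDECC, against 9.95, 9.90 and 9.87 in TDESM, a log2 difference of -6.55 (limma over all probe sets, adjusted p = 1.43e-07). The probe set with the highest mean gave -4.31, and the remaining pair gave -0.71 and -0.75 with strain means of 4.11 to 6.05. All 4 were lower in TDECC without overlap, while 36.9% of all probe sets passed in either direction; of the 11 probe sets of the 8 members, 4 passed. Usp29, beside Peg3, was at 4.75 in TDECC and 5.04 in TDESM and did not pass.

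Beside Ndn, Peg12, an intronless gene of the same cluster, read 3.52, 3.47 and 4.16 in TDECC, against 8.46, 8.36 and 8.83 in TDESM (log2 difference -4.83, limma adjusted p = 4.67e-06). Snrpn, a spliceosome protein of that cluster, differed by -0.74, at 4.59 in TDECC and 5.33 in TDESM (limma adjusted p = 0.00449). Chrna7, an acetylcholine receptor subunit, differed by -0.52. Ube3al1, on the same side as Snrpn, was higher in TDECC by 0.76, and Ube3a, a ubiquitin ligase gene on the list of other imprinted genes, by 0.56. The neighbours of Ndn thus had no single direction, and Ndn itself stayed at the foot of the scale. Around Plagl1, Stx11, a syntaxin of vesicle fusion, differed by -1.56 and Fuca2, a fucosidase, by -0.56. Around Mest, Cep41, a centrosome protein, differed by -0.87, and the overlapping neighbour Copg2 did not pass, at 9.81 in TDECC and 9.38 in TDESM. Around Grb10, Cobl, an actin nucleator, differed by 1.81 (0.86 when its probe sets were averaged) and Sec61g, a translocon subunit, by -0.81. All differences in this paragraph smaller in size than 1.22 on the negative side turned positive on the scale set by the poly-A controls.

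Among 40 other measured genes known as imprinted in mouse or human, 11 were higher and 10 lower in TDECC (52.5%, against 42.7% of all genes), with a median difference of -0.07. The higher ones were led by Ano1, a chloride channel imprinted in mouse placenta (5.80), followed by Kcnq1, Phlda2 and Slc22a18 of the Cdkn1c cluster, Ppp1r9a, neurabin (1.21), and Mcts2 (1.04). The lower ones were led by Cd81 and by Slc38a4, an amino acid transporter, which read 3.23, 3.17 and 3.04 in TDECC, against 10.07, 9.80 and 9.87 in TDESM (log2 difference -6.77). Peg12, Sgce, epsilon-sarcoglycan (-4.44), Igf2r, the receptor that clears Igf2 (-2.81), and Qpct (-2.02) followed.

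Peg10, a retrotransposon-derived gene beside Sgce, stood at 3.34 in TDECC and 3.59 in TDESM and did not pass. Gnas, a G protein subunit at 13.45 in TDECC and 13.12 in TDESM, was higher in TDECC by 0.33 (limma adjusted p = 0.0483), or by 1.84 when its probe sets were averaged. Igf2r also belongs to the list of insulin and IGF signalling, and Dcn to the fibroblast list.

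**Figure D3:**
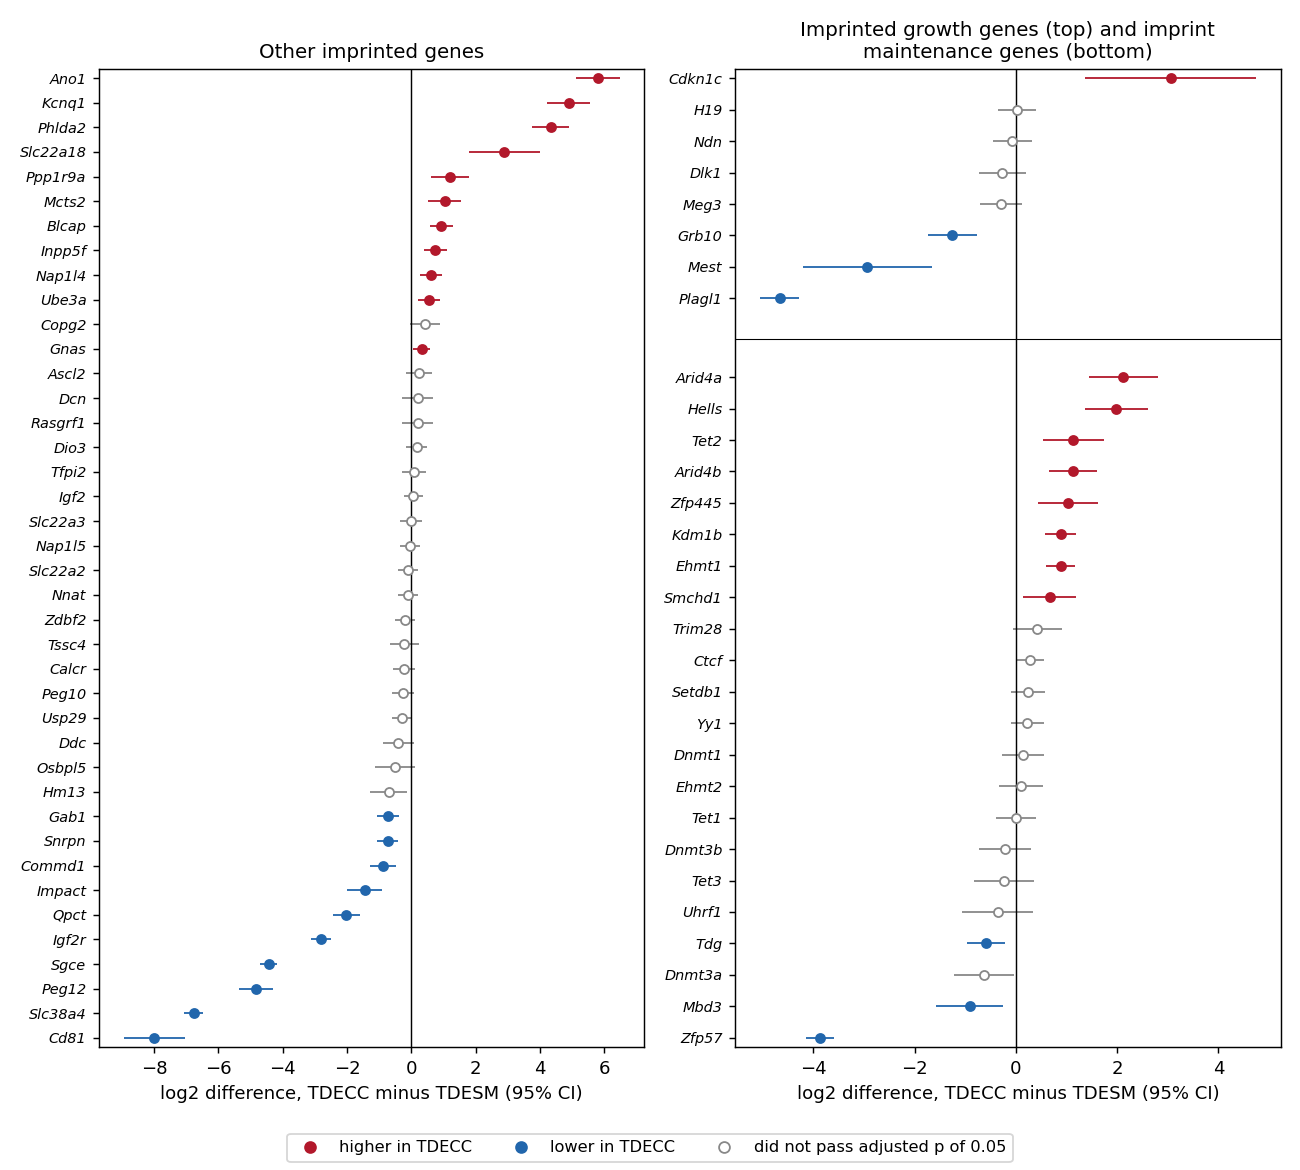
Log2 difference, TDECC minus TDESM, with its 95% confidence interval (horizontal axis) for 40 other imprinted genes (left), the 8 imprinted growth genes (upper right) and 22 genes of imprint maintenance and DNA methylation (lower right). Filled points passed a limma adjusted p of 0.05 (red higher, blue lower in TDECC) and open points did not; Ano1 at 5.80 and Cd81 at -7.99 are the ends of the left panel, and Zfp57 at -3.86 lies apart from the other maintenance genes.

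Genes that keep imprints or set DNA methylation were measured for 22 of 25 listed, and 8 were higher and 3 lower in TDECC (50%, near the 42.7% of all genes), with a median of 0.24. Zfp57, which protects imprints from erasure in the mouse embryo, read 4.85, 5.00 and 4.96 in TDECC, against 8.73, 8.75 and 8.91 in TDESM. This was the largest difference of the list, at -3.86 (SE 0.12, limma adjusted p = 6.86e-07). Zfp445, a related zinc finger protein with an overlapping task, was higher in TDECC by 1.03. Arid4a and Arid4b, chromatin proteins that act at the Snrpn control region in mouse, were higher by 2.12 and 1.13, Hells, a chromatin remodeller needed for DNA methylation, by 1.98, and Tet2, which oxidises methylated cytosine, by 1.14.

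The methyltransferases Dnmt1, Dnmt3a and Dnmt3b did not pass. Dnmt1 stood at 9.71 in TDECC and 9.57 in TDESM, Dnmt3a at 6.58 in TDECC and 7.21 in TDESM, and Dnmt3b at 4.77 in TDECC and 4.98 in TDESM. Trim28, the corepressor that Zfp57 recruits, Uhrf1, which guides Dnmt1, and Ctcf, the insulator protein of the H19 control region, did not pass either. The count of 11 fell to 7 without TDESM replicate 2 or without TDESM replicate 3.

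The pathways in which the members act were read from lists. Among 31 genes of insulin and IGF receptor signalling, in which Grb10 acts, 11 were higher and 8 lower in TDECC (61.3%, against 42.7% of all genes and 56.2% of genes with a mean of 6 or above in at least 1 strain). Foxo3, a factor restrained by insulin signalling, differed by 3.05 (1.10 when its probe sets were averaged) and Grb7, an adaptor of the Grb10 family, by 2.66. Igf2bp3, a fetal protein that binds Igf2 mRNA, differed by -4.39 by a probe set shared by transcripts, and Igf2r, also on the imprinted list, by -2.81.

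Among 24 CDK inhibitors, G1 kinases and E2F factors, the partners of Cdkn1c, 6 were higher and 6 lower (50%, near the 42.7% of all genes). Ccnd1, cyclin D1, differed by 2.92, E2f2 by 2.69, Cdkn2d, the inhibitor p19, by -2.13 and Ccnd3, cyclin D3, by -1.86. Cdkn1a and Cdkn1b, the p21 and p27 relatives of Cdkn1c, were named after their values were seen. Cdkn1a stood at 10.98 in TDECC and 10.12 in TDESM, Cdkn1b at 11.43 in TDECC and 10.56 in TDESM, and both passed as higher in TDECC, by 0.87 each (0.39 and 0.60 when probe sets were averaged).

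Among 17 genes of Delta and Notch signalling, listed as partners of Dlk1, 4 were higher and 5 lower (52.9%, against 42.7% of all genes). The higher ones were led by Jag2 (2.39) and Hes1 (1.89), and the lower ones by Hey2 (-5.72) and Hey1 (-3.21). Of 11 relatives of Plagl1 and Ndn, 4 were higher and 5 lower (81.8%, against 42.7% of all genes). The relatives of Plagl1 moved opposite to it: Plag1, a growth-promoting zinc finger factor, read 7.95, 7.72 and 6.82 in TDECC, against 4.05, 4.02 and 4.40 in TDESM (log2 difference 3.34, limma adjusted p = 1.25e-04), and Plagl2 differed by 2.38. Of the necdin relatives, Maged2 differed by -4.54 and Magee1 by -2.18. They give no direction for the necdin relatives as a group, as Plag1 and Plagl2 are only part of the 4 higher genes.

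The genes whose profile over the 6 arrays was nearest to those of Plagl1 and Cdkn1c were found by the root mean square difference of gene-centred log2 values. For Plagl1 they were Plxdc2 (0.103), Itgbl1 (0.113) and Numbl (0.147), each between -4.57 and -4.67 in TDECC minus TDESM. For Cdkn1c they were Sox4 (0.504), Prss30 (0.548) and Igsf11 (0.553), less near, and Sox4 and Prss30 differed by 2.82 and 2.43, or by 1.90 and 1.77 when probe sets were averaged. With 6 arrays of 2 strains, likeness of this kind largely reflects a similar difference between the strains.

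Within TDECC, Cdkn1c and Mest varied more than 99.1% and 98.2% of genes by their SD, while Plagl1 stood at the 43.3rd percentile. Both were lowest on TDECC replicate 2. Of 369 genes with a TDECC range of 2 or more, 14.9% were lowest on replicate 2, 58.8% on replicate 1 and 26.3% on replicate 3, and 0 genes had such a range in TDESM. Of 19 proliferation genes 0 were higher and 4 lower in TDECC by limma (0 and 6 at an unadjusted p of 0.05). This is 21.1%, below the 42.7% of all genes that passed. Among the lower ones were Kif20a (-1.86) and Birc5 (-1.62). Their mean was 9.85, 8.68 and 9.40 on the TDECC arrays, against 9.81, 9.80 and 9.92 on the TDESM arrays, so it too was lowest on TDECC replicate 2; its part in the spread of Cdkn1c and Mest was not tested. The mean of 19 fibroblast markers was 4.74, 4.67 and 4.73 on the TDECC arrays, against 11.07, 11.10 and 10.98 on the TDESM arrays. Most of these markers lay near the background guide in TDECC. Acta2, Col3a1 and Vim had TDECC means above its 90th percentile of 6.10 and did not share an order. Acta2, smooth muscle actin, read 6.02, 6.10 and 7.71 on the TDECC arrays, and Col3a1, a fibrillar collagen, 6.18, 7.42 and 7.60. Vim, vimentin, read 8.57, 7.65 and 7.61. Tagln, transgelin, with a lower mean of 5.44, read 6.15, 4.65 and 5.51, the same order of arrays as Mest. Vim and Tagln were highest on replicate 1, as Mest was, while Acta2 and Col3a1 were highest on replicate 3. The part of fibroblast RNA in the spread of Mest was not tested.

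**Figure D4:**
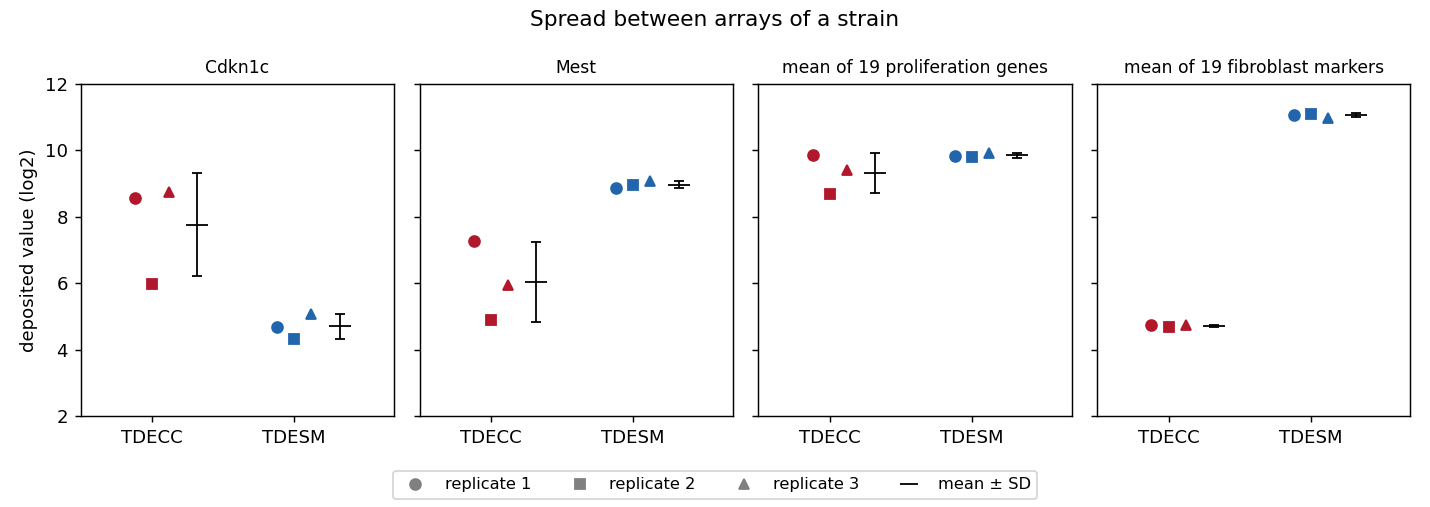
Deposited log2 values (vertical axis) of Cdkn1c and Mest and the means of 19 proliferation genes and 19 fibroblast markers on each array, TDECC left in red and TDESM right in blue, with symbols for the replicate and bars for the mean ± SD of 3 arrays. TDECC replicate 2 (square) is the lowest TDECC array in the first 3 panels, at 5.97, 4.89 and 8.68, and the fibroblast marker means lie between 4.67 and 4.74 in TDECC.

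Markers of other cells mostly stayed near background. Of 21 leukocyte markers 0 were higher and 1 lower in TDECC by limma, Gzmb (-2.91), with 2 and 1 at an unadjusted p of 0.05, and of 14 endothelial markers 1 was higher and 3 lower. Of 18 hepatocyte and hepatoblast markers 2 were higher and 3 lower, of 18 muscle markers 1 and 3, and of 8 mesothelial markers 2 and 2 (50%, against 42.7% of all genes). The shares that passed were 4.76% (leukocyte), 28.6% (endothelial), 27.8% (hepatocyte) and 22.2% (muscle), each below that of all genes. Several markers were far above background. Cd14 of the leukocyte list stood at 10.39 in TDECC and 8.73 in TDESM and did not pass (limma adjusted p = 0.0991). Arg1 of the hepatocyte list stood at 8.71 in TDESM and Egfl7 of the endothelial list at 8.47 in TDESM. Krt7, also on the carcinoma list, and Msln, both mesothelial, stood at 14.06 and 12.84 in TDECC. Wt1, also mesothelial, stood at 9.17 in TDESM. Ass1 of the hepatocyte list stood at 9.37 in TDECC. Myh1 of the muscle list stood at 11.16 in TDECC and 9.95 in TDESM, by a probe set whose name marks probes shared by several transcripts. Its difference was 1.21, or 0.79 when its 5 probe sets were averaged. Of 17 neural markers 2 were higher and 3 lower (29.4%, against 42.7% of all genes), among them Eno2 (-4.65) and Uchl1 (-4.04), which were bright in TDESM. The mean over the neural list was 4.42 to 4.67 on the TDECC arrays and 4.86 to 4.90 on the TDESM arrays, and its part in the values of the imprinted genes was not tested.

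All differences are relative to arrays scaled to 1 distribution, which removes any difference in total mRNA. Centred on the poly-A control transcripts instead, the median over all genes moved by 1.22 towards TDECC. On that scale Plagl1 differed by -3.44, Mest by -1.71 and Cdkn1c by 4.28, in the same directions as before. The limma adjusted p went from 0.0117 to 5.02e-30 for Cdkn1c and from 1.20e-06 to 9.64e-20 for Plagl1. Such values are not plausible from 3 arrays a group, so calls on the poly-A scale cannot be read like those on the deposited scale. Of 21 housekeeping genes 5 were higher and 5 lower in TDECC on the deposited scale (47.6%, against 42.7% of all genes). The 19 ribosomal protein genes gave 2 higher calls by limma and 0 lower ones (10.5%), also 2 and 0 at an unadjusted p of 0.05. On the poly-A scale Dlk1, H19, Meg3 and Ndn differed by 0.96, 1.24, 0.93 and 1.15, and Grb10 by -0.03. Of the 8 genes 7 passed there, all but Grb10, but so did most genes, 11771 of all 14217.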

How the data were processed

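RNA of 3 TDECC and 3 TDESM samples was measured on rat Affymetrix arrays, grouped and numbered by their titles. Trizol extraction and biotin labelling are stated per the labels' protocols. The deposited log2 values came from RMA, which corrects background, brings all arrays to 1 distribution and summarises probes; the tool is named, without a version, per the submitters' processing notes. There are no detection calls, and precision is limited by the number of arrays.

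Of 31099 probe sets, 57 were controls and 20826 named 1 gene symbol. For each of 14217 genes the brightest probe set (by mean of all arrays) was used. Each gene was tested in R 4.3.3 with limma 3.58.1 (lmFit, eBayes), TDECC minus TDESM, two-sided, adjusted over all genes by the Benjamini-Hochberg method, a threshold of 0.05 and no replicate block; the same fit was run over all 31042 probe sets that are not controls. The fit was tested on simulated data for TDECC minus TDESM with 14217 genes, 200 of them changed. It recovered 58% of log2 changes of 1 and 88% of log2 changes of 2, and 5.19% of its calls were unchanged genes. The simulation gave both strains the same spread and changed few genes, while 42.7% passed in the data, so these rates need not hold here.

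The members and the 18 gene lists were chosen with earlier results of these data known. Named were all members; up to 6 genes each way of the imprinted and maintenance lists past the threshold with a difference over 1, with 11 fixed genes; up to 2 each way of the other lists; up to 2 neighbours per member; and 3 genes of like profile for the largest difference each way. Further neighbours, Cdkn1a, Cdkn1b, Ube3a, Acta2, Col3a1, Tagln, Vim, Fap, Dcn, Cd14 and Usp29 were chosen after their values were seen. Of 397 list symbols 340 were measured. Alternatives were cyclic loess, centring on housekeeping genes, ribosomal protein genes or the poly-A controls (dap, lys, phe, thr), the mean of all probe sets, a filter that drops the dimmest 33.3% of genes, trend and robust eBayes, array weights per group, the replicate block, a minimum log2 difference of 1, and each array left out in turn. No score or set test over the members was run.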

Additional observations from a re-analysis of the deposited data

How the results depend on the processing

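The count of 4 members past the threshold was 3 without the dimmest genes, where Grb10 was filtered out with Dlk1, H19, Meg3 and Ndn, was between 3 and 5 when 1 array at a time was left out, and stayed at 4 under all other alternatives but the poly-A centring. Centred on the poly-A controls, 11771 of all 14217 genes (10873 higher and 898 lower in TDECC, against 2930 and 3135), 7 member genes and 10 of the 11 member probe sets passed. With a minimum log2 difference of 1, 3621 genes passed in place of 6065. Leaving out 1 array at a time gave 4605 to 6437 genes and 3 to 5 member probe sets.

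Plagl1, Mest and Cdkn1c kept their direction under every alternative run, and Cdkn1c lost its call only without TDESM replicate 2 (2.87). Grb10 lost its call under the poly-A centring (-0.03). Among the members that did not pass, the sign turned under the poly-A centring for Dlk1 (0.96), Meg3 (0.93) and Ndn (1.15), and H19 passed there (1.24). H19 also turned to -0.00132 with cyclic loess, to -0.0872 centred on ribosomal protein genes and, leaving out arrays, to between -0.11 and 0.16 (-0.02 without TDECC replicate 1, -0.105 without TDESM replicate 3). Ndn ran from -0.232 to 0.0283 with an array left out, above 0 only without TDESM replicate 1. Meg3 passed without TDESM replicate 3 (-0.47). The cause of these turns was not tested beyond the shift of 1.22 that the poly-A centring adds to every gene.

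With the replicate block 5342 genes and 4 members passed, and the block changed no call of a member. The deviations of same-numbered arrays correlated at -0.07, 0.02 and -0.14, and those of arrays with different numbers at -0.14 to 0.152. Deviations from a mean of 3 arrays offset each other by construction, so these values cannot decide whether the numbers pair the arrays. In alternatives added after seeing the data, the counts of other imprinted and maintenance genes rose to 34 and 19 under the poly-A centring, where 11771 of all 14217 genes passed. With a minimum difference of 1 they were 13 and 6. The counts of the Cdkn1c neighbours were 4 to 6 over these alternatives. Without replicate checks on separate cultures, and with 3 arrays a group, small differences near the array background cannot be resolved here.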
